A study of Mus musculus with 8 samples.

Results

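Short contacts between 2 different protein-coding genes were examined in a map of RNA polymerase II (Pol II) contacts in mouse liver. The map was made by ChIA-PET, in which crosslinked chromatin is pulled down with a Pol II antibody, DNA ends held in one complex are joined through a linker, and a short tag is read from each side as a paired-end tag (PET). A contact was taken when both ends lay on one chromosome, 8 to 100 kb apart, each inside the span of a protein-coding RefSeq gene or 2.5 kb beside it, with no gene holding both ends. These joining PETs numbered 734, out of 3075 PETs 8 to 100 kb apart (called short PETs here) and 2751289 nuclear PETs in all. By experiment they were 206 of 714 short PETs in experiment 1, 63 of 397 in experiment 2 and 465 of 1964 in experiment 3. The linker TAAG marked 416 of the 734 PETs and ATGT 318, and their ends lay 8148 to 99829 bp apart. They joined 1035 pairs of genes made from 1527 genes.

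As background, Pol II initiates at a gene's start site, often pauses shortly after it and then moves through the gene body, so an immunoprecipitation of Pol II enriches start sites and transcribed bodies. Genes are not spread evenly: housekeeping genes and members of duplicated families often lie next to each other, and 2 neighbours may share a divergent promoter. Contacts between the start sites of different genes have been described with this assay in other cell types, as places where active genes lie close together in the nucleus. In liver most nuclei are those of hepatocytes, which secrete plasma proteins and carry out gluconeogenesis, the urea cycle, fat metabolism and the clearance of foreign compounds.

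All livers came from wild-type C57BL/6 mice of 3 to 6 months, kept in 12 h of light and 12 h of dark with free access to food. Collection was at ZT06 or ZT18 (hours after the lights came on). The labels describe 8 libraries, 4 at each time: 2 per time in experiment 1 and 1 per time in experiments 2 and 3. Chromatin was fixed with 1% formaldehyde in experiment 2, and with 1.5 mM EGS, a longer protein crosslinker, and 1% formaldehyde in experiments 1 and 3; material of 3 to 7 livers was pooled for each immunoprecipitation with the antibody 8WG16. Each PET is marked with its experiment and linker, and none with a library, so day and night were not compared and no spread between replicates can be given. The values below are 1 per experiment, with 95% intervals that cover counting error only; 2 dual-crosslinked pools against 1 formaldehyde pool cannot be tested. Bulk liver was used, so a contact in more cells and a stronger contact in the same number of cells cannot be told apart.

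The nuclear PETs numbered 474466 in experiment 1, 1438852 in experiment 2 and 837971 in experiment 3. The ends of PETs at most 8 kb apart were used as a measure of Pol II signal at a gene, as their density over the gene and 2.5 kb either side relative to the nuclear mean. The hepatocyte markers Alb, Apoa1, Apoa2, Ttr, Trf and Serpina1a had a median density of 106, 30.1 and 24.9 in experiments 1, 2 and 3. Serpina1a, one of several near-identical copies, was the lowest of them, at 3.32 in experiment 1 and with 0 ends in experiments 2 and 3. The 47 markers of Kupffer, endothelial, stellate and bile duct cells and lymphocytes had medians of 1.18, 0.834 and 1.41, with 19, 15 and 8 of them at 0. Above the nuclear mean lay 24, 22 and 31 of them, up to 21.9, 8.64 and 15.8. Of all protein-coding genes, 54.3%, 53.5% and 59.3% lay above it, with medians of 1.21, 1.14 and 1.38. Cd68, a macrophage gene, stood at 21.9, 4.36 and 15.8, on only 12, 2 and 10 ends. Sox9, a bile duct marker, stood at 7.24, 8.64 and 8.35, on 6, 6 and 8 ends. Lyz2 and Cd14 were at 0 in each experiment.

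In 65.0% of joining PETs at least 1 end lay within 2.5 kb of a start site, against 46.8% of chance PETs that join 2 genes over the same distances. By experiment the ratio to chance was 1.12 (0.933 to 1.33), 1.42 (0.957 to 2.02) and 1.54 (1.37 to 1.71), so it lay above 1 beyond counting error in experiment 3 only. The bases before the outermost start of 6 genes in which PETs ended repeatedly are shown first. Each gene was joined by 2 PETs to the same partner, with both PET ends in it within 2.5 kb of that start. The ends lay 2058 and 2094 bp inside the outermost start of Fetub, near an inner start. In Shisa5 they lay 1747 and 88 bp inside the outermost start. A stretch shown thus need not lie at the start nearest to a PET end. Fetub (chr16:22918132-22918381, + strand) was joined to Ahsg, Zfyve1 (chr12:83597246-83597472, - strand) to Rbm25, Shisa5 (chr9:109038317-109038566, + strand) to Pfkfb4, Tead3 (chr17:28350806-28351055, - strand) to Fance, Rabggtb (chr3:153912967-153913216, - strand) to Acadm and Mlf2 (chr6:124931138-124931387, + strand) to Ptms. Sequences are from RefSeq on GRCm38.p6, which is mm10, are written 5′ to 3′ in the direction of the gene, and hold no base of an annotated gene. Capitals mark 3 motifs, found on either strand. The first is the TATA box, TATAAA. The second is the CCAAT box, whose reverse form reads ATTGG. The third is the GC box, written GGGCGG on one strand and CCGCCC on the other. CACGTG, the E-box bound by the clock factors BMAL1 and CLOCK, was searched as well.
Fetub: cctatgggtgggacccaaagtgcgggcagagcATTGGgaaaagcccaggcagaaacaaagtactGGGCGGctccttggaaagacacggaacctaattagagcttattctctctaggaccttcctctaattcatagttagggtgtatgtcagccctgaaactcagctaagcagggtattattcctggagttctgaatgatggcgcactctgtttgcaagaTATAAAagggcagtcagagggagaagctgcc
Zfyve1: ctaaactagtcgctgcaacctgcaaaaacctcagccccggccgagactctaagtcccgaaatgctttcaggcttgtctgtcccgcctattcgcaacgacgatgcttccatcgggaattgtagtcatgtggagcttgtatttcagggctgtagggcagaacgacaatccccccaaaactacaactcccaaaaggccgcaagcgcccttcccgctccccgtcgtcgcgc
Shisa5: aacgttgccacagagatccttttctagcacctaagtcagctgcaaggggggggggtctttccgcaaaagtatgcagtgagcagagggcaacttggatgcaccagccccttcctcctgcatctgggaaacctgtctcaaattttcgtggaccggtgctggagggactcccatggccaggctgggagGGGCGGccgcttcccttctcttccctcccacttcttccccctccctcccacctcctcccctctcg
Tead3: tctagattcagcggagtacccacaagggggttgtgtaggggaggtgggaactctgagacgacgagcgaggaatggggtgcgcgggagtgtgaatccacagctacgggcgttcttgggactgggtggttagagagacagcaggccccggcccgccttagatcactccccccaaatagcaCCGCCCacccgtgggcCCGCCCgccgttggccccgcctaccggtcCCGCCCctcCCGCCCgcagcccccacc
Rabggtb: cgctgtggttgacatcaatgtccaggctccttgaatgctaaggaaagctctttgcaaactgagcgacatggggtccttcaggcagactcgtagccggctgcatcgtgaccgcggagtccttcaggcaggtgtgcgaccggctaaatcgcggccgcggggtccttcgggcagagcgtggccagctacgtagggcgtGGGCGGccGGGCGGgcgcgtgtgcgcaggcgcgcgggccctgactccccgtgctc
Mlf2: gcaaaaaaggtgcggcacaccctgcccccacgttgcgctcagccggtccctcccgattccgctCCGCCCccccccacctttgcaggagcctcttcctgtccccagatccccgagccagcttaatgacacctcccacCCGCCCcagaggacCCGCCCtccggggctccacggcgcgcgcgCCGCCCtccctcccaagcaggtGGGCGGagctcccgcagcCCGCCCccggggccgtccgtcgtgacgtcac
Fetub, the gene of a plasma protein, has TATAAA 31 bases before its outermost start, the reverse CCAAT 218 bases before it and GGGCGG 186 bases before it. Those of Tead3 (a DNA-binding factor of the Hippo pathway) and Mlf2 hold 4 and 6 GC boxes and no TATA box. Rabggtb holds GGGCGG 55 and 47 bases before its start, Shisa5 holds it 65 bases before, and Zfyve1 holds none of the 4 motifs in the 227 bases shown. None of the 6 stretches holds CACGTG, which says only that these letters are not in these windows.

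Whether short PETs join 2 genes more often than distance alone gives was asked first. Chance PETs were all pairings of a read-1 end with a read-2 end of the same experiment and linker, PETs at most 8 kb apart left out, weighted to the distances of the observed short PETs. In experiment 1, 28.9% of short PETs joined 2 genes (95% Clopper-Pearson interval 25.6 to 32.3), against 15.8% of chance PETs, a ratio of 1.82 (exact Poisson interval 1.58 to 2.09). In experiment 2 the share was 15.9% (12.4 to 19.8) against 8.52%, a ratio of 1.86 (1.43 to 2.38). In experiment 3 it was 23.7% (21.8 to 25.6) against 14.4%, a ratio of 1.64 (1.49 to 1.80). All 3 ratios lay above 1 beyond counting error, and their intervals overlapped although the crosslinking differed.

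Contacts inside 1 gene stood nearer to chance, with intervals that do not reach those for 2 genes. PETs within 1 gene stood at 1.19 (1.05 to 1.35), 1.09 (0.914 to 1.28) and 1.11 (1.03 to 1.19) times chance in experiments 1, 2 and 3. PETs with 1 end in a gene stood at 1.49 (1.29 to 1.73), 1.21 (0.952 to 1.51) and 1.23 (1.12 to 1.35). In experiments 1 and 2 the intervals of this class overlapped those for 2 genes. PETs with both ends outside genes were below chance, at 0.261 (0.203 to 0.330), 0.682 (0.563 to 0.819) and 0.467 (0.415 to 0.523). Without the weighting for distance, joining PETs were 32.1 (27.9 to 36.8), 5.39 (4.14 to 6.89) and 40.8 (37.2 to 44.7) times as many as chance pairing gave. Experiment 2, fixed with formaldehyde alone, had the most PETs and the lowest of these ratios; its difference from the others was not tested.

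Longer short PETs joined 2 genes more often. Over the experiments together, the share rose from 9.51% (6.71 to 13.0) at 8 to 10.3 kb to 36.2% (30.4 to 42.2) at 77.7 to 100 kb. Chance PETs rose from 4.95% to 24.1% over the same range. The ratio to chance was 1.75 (1.501 to 2.02) below 21.97 kb and 1.69 (1.55 to 1.84) above it. The experiments differed in direction: from below to above that distance experiment 1 had 1.596 (1.17 to 2.12) and then 1.901 (1.62 to 2.22), experiment 2 had 2.05 (1.02 to 3.66) and then 1.83 (1.37 to 2.398), and experiment 3 had 1.79 (1.48 to 2.14) and then 1.592 (1.43 to 1.77). Within each experiment the 2 intervals overlapped. In absolute numbers, joining PETs below 21.97 kb were 85.1 (73.1 to 98.6) times as many as unweighted chance pairing gave, and those above it 20.2 (18.6 to 22.01) times.

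**Figure D1:**
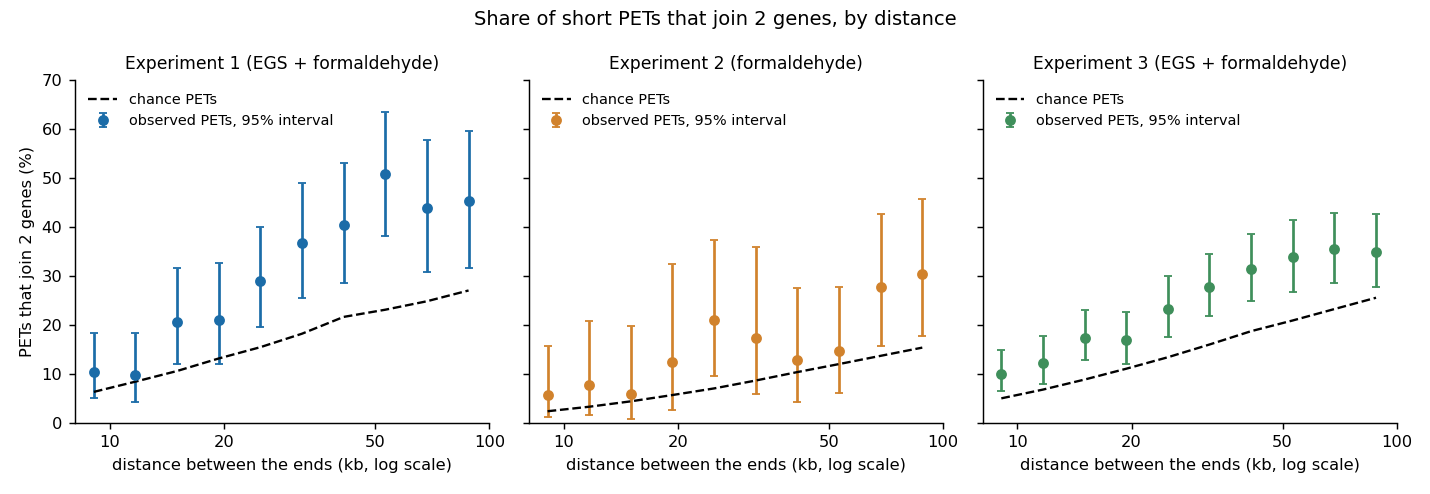
Share of PETs that join 2 genes (%) against the distance between their ends (kb, log scale) in each experiment. Points are observed shares with 95% Clopper-Pearson intervals in 10 distance classes and the dashed line is the share of chance PETs; observed points lie above the line in each of the 10 classes, and the intervals of 7 classes of experiment 2 and 3 classes of experiment 1 include it.

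The median distance between joined ends was 39.0 kb (quartiles 22.3 and 63.5 kb). It was 38.5 kb in experiment 1, 56.2 kb in experiment 2 and 38.1 kb in experiment 3, and PETs within 1 gene had shorter medians of 17.3, 22.2 and 18.4 kb. The gene pairs themselves lay closer, with a median gap of 18.9 kb between the 2 gene bodies. Where genes overlap one PET can join several pairs: 502 PETs joined 1 pair and 232 joined up to 6.

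Where within the genes the ends lay set the contacts apart from chance. Both ends lay within 2.5 kb of a start site in 191 of the 734 joining PETs, 26.0% (22.9 to 29.4), against 9.82% of chance PETs that join 2 genes over the same distances. By experiment these start-to-start PETs were 51 (24.8% against 14.2%, ratio 1.74, interval 1.298 to 2.29), 8 (12.7% against 5.08%, 2.502, 1.08 to 4.93) and 132 (28.4% against 8.53%, 3.33, 2.79 to 3.95). The intervals of experiments 1 and 3 do not overlap, although both were fixed with EGS; the difference was not tested. PETs with both ends away from start sites and 3′ ends were fewer than chance in experiments 1 and 3: 13.1% against 20.2% and 12.7% against 29.8%. In experiment 2 they were 30.2% (19.2 to 43.0) against 40.8%.

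A start site joined to a 3′ end was about as frequent as among chance PETs, at 8.17% (6.30 to 10.4) against 7.94% over the 3 experiments. A start site joined to a gene body stood at 24.8% (21.7 to 28.1) against 25.5%. A 3′ end joined to a gene body was rarer than by chance, at 7.77% (5.93 to 9.94) against 12.4%, a ratio of 0.627 (0.475 to 0.813). By experiment the ratios were 0.922 (interval 0.571 to 1.41), 0.681 (0.250 to 1.48) and 0.506 (0.342 to 0.723), and that of experiment 3 alone lay below 1 beyond counting error. Both ends lay at 3′ ends in 9 PETs, 1.23% (0.562 to 2.31) against 1.84%. Counted without strand, both ends lay within 2.5 kb of either border of a gene in 42.1% (38.5 to 45.8) of joining PETs against 24.2% of chance PETs. Among PETs within 1 gene this was 8.44% (6.90 to 10.2) against 3.65%. The ratios were 1.74 (1.55 to 1.94) for PETs that join 2 genes and 2.31 (1.88 to 2.82) within 1 gene. The excess at borders was thus not particular to PETs that join 2 genes. Strand and start sites were known for 17491 of the 21883 genes (79.9%), so ends at start sites of the others are not counted, in the observed and the chance PETs alike.

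The order, strand and spacing of the paired genes were close to chance. Joined genes were called neighbours when no other protein-coding gene lay wholly between the 2 PET ends, more than 2.5 kb from both. This held in 62.5% (58.9 to 66.0) of joining PETs, against 64.6% of chance PETs. Of the 507 PETs with both strands known, 50.3% (45.9 to 54.7) joined genes of the same strand, against 51.1%. Convergent genes made up 28.2% (24.3 to 32.3) against 28.04%, and divergent genes 21.5% against 20.8%, a ratio of 1.03 (0.847 to 1.24). A gap of 10 to 50 kb between the gene bodies was the most frequent, in 44.7% (41.0 to 48.4) of PETs against 44.9% of chance PETs. The one gap class outside its interval was that of 50 kb or more in experiment 3, at 13.5% against 10.2%, a ratio of 1.33 (1.02 to 1.70); in experiments 1 and 2 the ratios were 0.887 (0.549 to 1.36) and 1.16 (0.554 to 2.13).

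**Figure D2:**
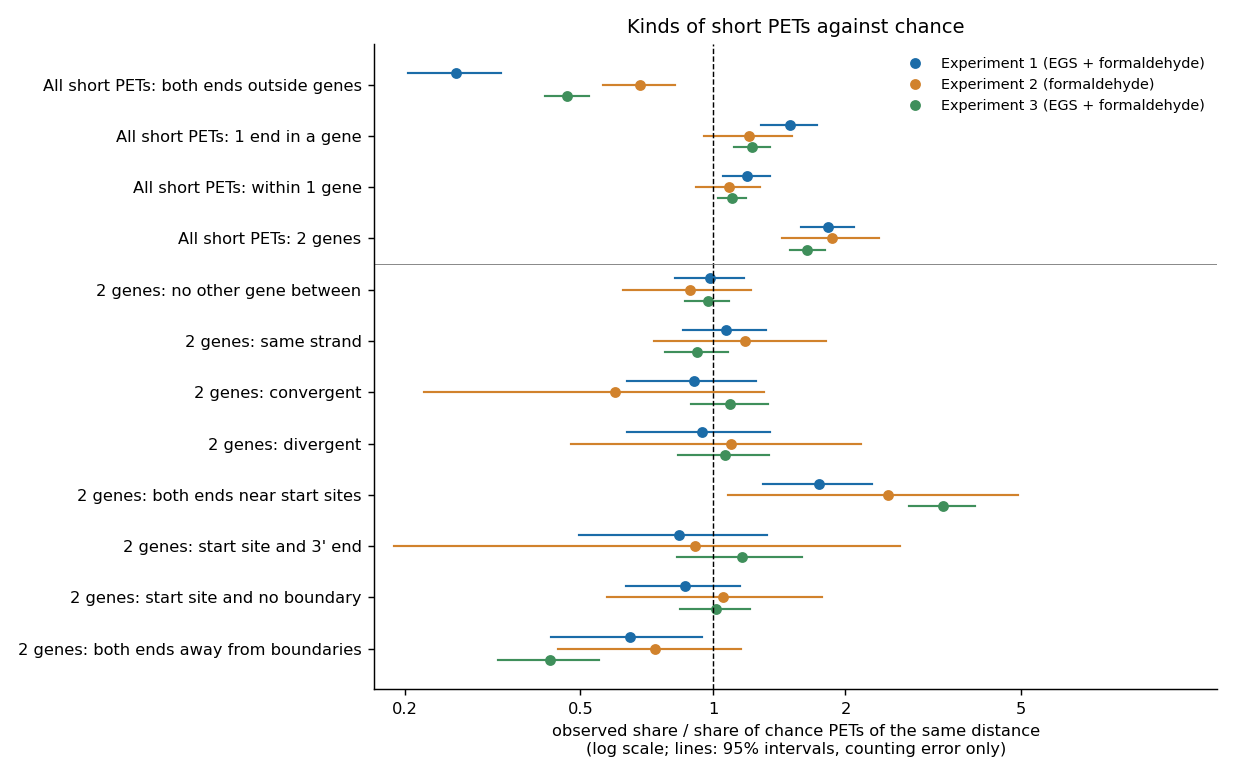
Observed share divided by the share of chance PETs of the same distance (log scale) for kinds of short PETs (top 4 rows) and for features of the PETs that join 2 genes (lower 8 rows), with 95% intervals. Points are the 3 experiments; pairs of start sites lie right of 1 in each, and neighbour and strand classes lie near 1.

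Most pairs were seen once. Within reach of a short PET lay 54845 pairs, of which 1035 (1.89%) were joined by at least 1 PET, and 975 of these by 1 PET only. At least 2 PETs joined 60 pairs, where the chance PETs give 11.5, and PETs of at least 2 experiments joined 30 pairs, where they give 5.16. These chance numbers come from 431 joining PETs, where 734 were observed. The general excess of joining PETs therefore raises the observed repeats too. Whether single pairs recur beyond that excess was not tested. Overlapping genes repeat the same PETs, and the 60 pairs rest on 41 sets of PETs and the 30 pairs on 25. Both counts rest on the flank and on experiments 1 and 3: they were 16 and 10 with no flank, 21 and 2 without experiment 1, and 14 and 2 without experiment 3. Of the 30, 26 were seen in experiments 1 and 3, 2 in experiments 1 and 2, 2 in experiments 2 and 3, and 0 in all 3. Usb1-Cfap20 and Ndufc2-Thrsp each rested on 2 PETs of experiment 1 with ends at most 2 bp apart, which may be copies of one molecule, and count as 1 PET when such pairs are merged.

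**Figure D3:**
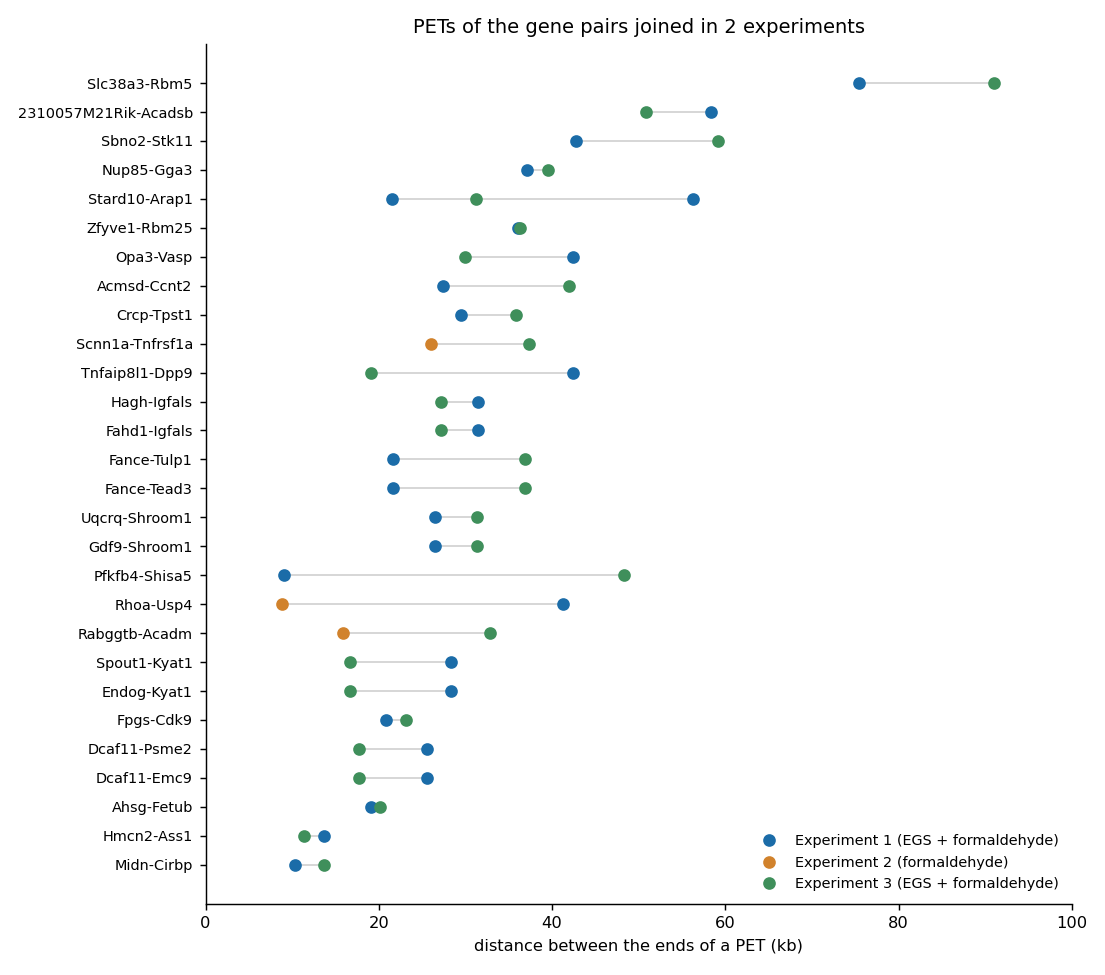
Distance between the ends (kb) of each PET of the gene pairs joined in at least 2 experiments, without 2 pairs that are not reported, coloured by experiment, with a line between the shortest and the longest. Distances of a pair range from nearly equal (Zfyve1-Rbm25, Ahsg-Fetub) to several-fold different (Pfkfb4-Shisa5, Rhoa-Usp4).

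Of these pairs, Ahsg-Fetub has both genes on the list of plasma proteins. Ahsg and Fetub, on chr16, encode fetuin-A and fetuin-B, related plasma glycoproteins made by hepatocytes. Their contact was seen at 19.1 kb in experiment 1 and 20.2 kb in experiment 3. Both PETs ran from just beyond the 3′ end of Ahsg (chr16:22892015-22899451) to 218 and 254 bp from an inner start site of Fetub (chr16:22918382-22939768), against 0.232 PETs given by chance. Igfals (chr17:24877844-24882011), the acid-labile subunit that carries insulin-like growth factors in plasma, was joined to the start region shared by Hagh (glyoxalase II) and Fahd1, an enzyme of mitochondria. Its PETs spanned 31.4 kb in experiment 1 and 27.2 kb in experiment 3, and the ends lay 837 and 76 bp from the Fahd1 start and 2153 and 259 bp from an Igfals start. The chance numbers were 0.137 for Hagh-Igfals and 0.0737 for Fahd1-Igfals.

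Stard10 (chr7:101317086-101346626), a lipid transfer protein gene, and Arap1 (chr7:101347921-101412586), which encodes a GTPase-activating protein, were joined by 3 PETs. They spanned 21.6 and 56.2 kb in experiment 1 and 31.2 kb in experiment 3, against 0.132 PETs given by chance. None had both ends at start sites: the nearest annotated starts were 6224 to 15342 bp away in Stard10 and 4716 to 6438 bp away in Arap1. The genes lie head to tail on the + strand with 1294 bp between them. Ephx2 (chr14:66084372-66124522), the gene of soluble epoxide hydrolase, and Chrna2 (chr14:66133236-66152948), a nicotinic receptor subunit, were the other pair with 3 PETs, at 16.2, 28.9 and 29.7 kb. All 3 came from experiment 3, against 0.0643 by chance, and their ends in Chrna2 lay between positions 66140693 and 66141034.

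Pairs with enzymes of amino acid and fat metabolism came next. Ass1 (chr2:31470270-31520670), argininosuccinate synthase of the urea cycle, was joined to the end of the neighbouring Hmcn2, an extracellular matrix gene, at 13.7 kb in experiment 1 and 11.4 kb in experiment 3. Chance gave 0.808 PETs for this pair, the highest value among the 30 pairs. Acadm, which encodes the medium-chain acyl-CoA dehydrogenase of fatty acid oxidation, and Rabggtb, a subunit of the enzyme that attaches lipids to Rab proteins, were joined at 15.9 kb in experiment 2 and 32.8 kb in experiment 3. The PET of experiment 3 ran from 731 bp of the Rabggtb start to 102 bp of the Acadm start. Acadsb, another acyl-CoA dehydrogenase gene, was joined to 2310057M21Rik at 58.4 and 50.9 kb, against 0.00948 by chance. Kyat1 (kynurenine aminotransferase 1) and Endog (a mitochondrial nuclease) were joined at 28.4 and 16.6 kb, and the same PETs counted for Spout1, which overlaps Endog.

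Acmsd, an enzyme of tryptophan breakdown, and Ccnt2, a cyclin of the elongation factor P-TEFb, were joined at 27.4 kb in experiment 1 and 41.97 kb in experiment 3. The Ccnt2 ends lay 1743 and 448 bp from its start. Cdk9, the kinase of P-TEFb, was joined to its neighbour Fpgs, which adds glutamates to folate, at 20.8 and 23.1 kb. Pfkfb4, a regulator of glycolysis, and Shisa5 were joined at 9003 bp in experiment 1 and 48.4 kb in experiment 3. The first PET ran from the 3′ part of Pfkfb4 and the second from 1608 bp of its start, and both ended within 100 bp of a Shisa5 start. Rhoa, a small GTPase, and Usp4, a deubiquitinase, showed the same shape in experiments 1 and 2, with 41.3 and 8.87 kb and Usp4 ends 104 and 3 bp from a start; the longer PET began 249 bp from the Rhoa start and the shorter one beyond its 3′ end.

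Regulatory genes appeared among the pairs too. Zfyve1 and Rbm25, a splicing regulator, were joined at 36.1 and 36.3 kb, with ends 87 and 315 bp from the Zfyve1 start and 2518 and 2468 bp from that of Rbm25. Midn and Cirbp, the gene of a cold-inducible RNA-binding protein, were joined at 10.3 and 13.7 kb, against 0.180 by chance. Stk11, the kinase LKB1, and Sbno2 were joined at 42.8 and 59.1 kb, and Tnfrsf1a, a TNF receptor, and Scnn1a, a sodium channel subunit, at 26.0 kb in experiment 2 and 37.4 kb in experiment 3.

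**Figure D4:**
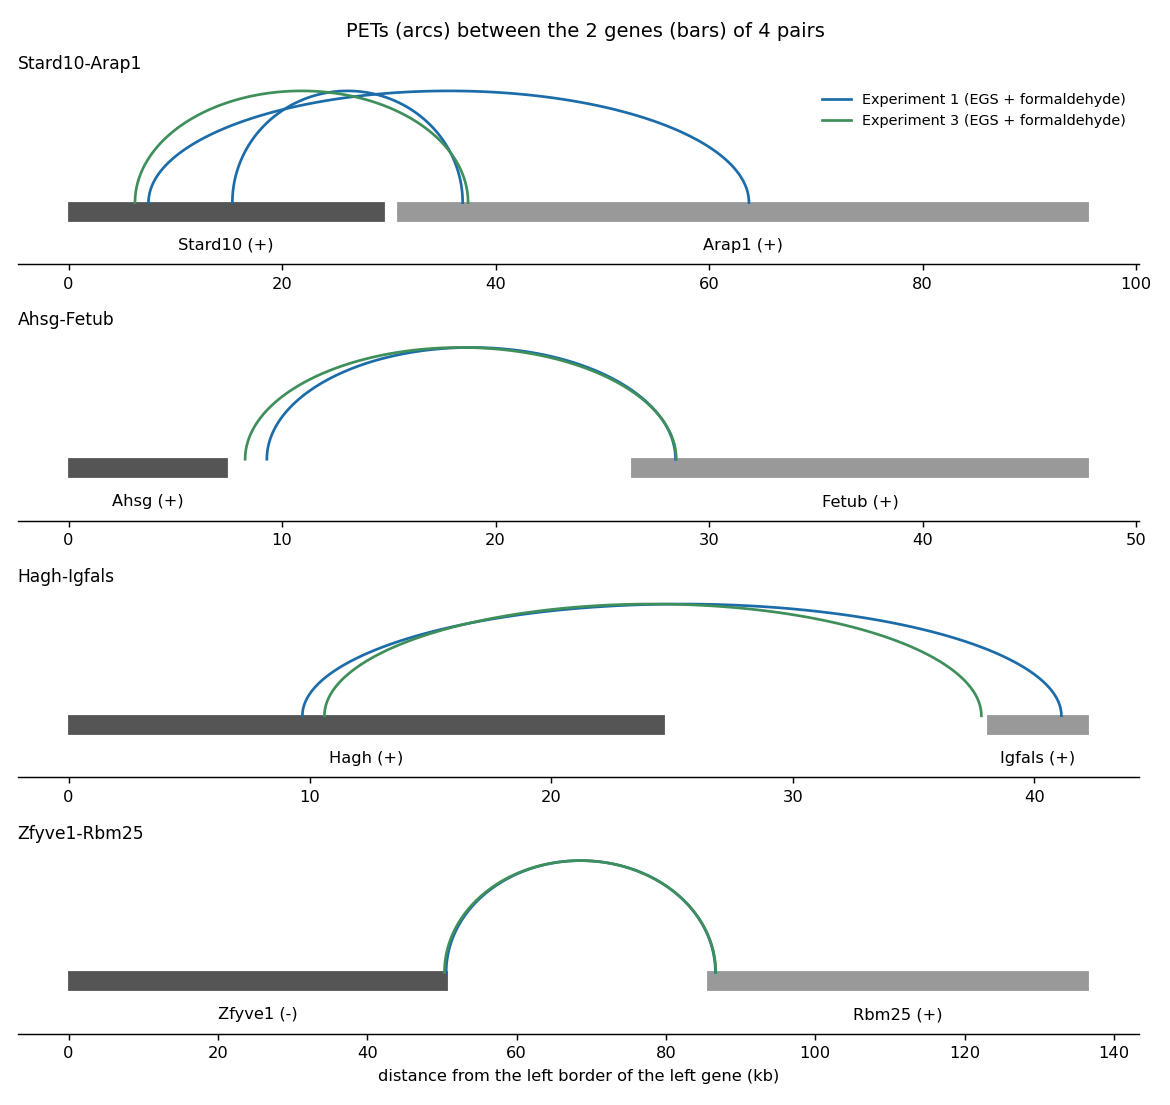
Arcs are the PETs between the 2 genes of 4 pairs, coloured by experiment, over gene bodies drawn to scale in kb from the left border of the left gene, with the strand where known. PETs of experiments 1 and 3 ended within about 1 kb of each other at both sides in Ahsg-Fetub and Zfyve1-Rbm25, and in Stard10-Arap1 they spread over the gene bodies.

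Over the 30 pairs, single PETs spanned 8.87 to 91.0 kb. Slc38a3, a glutamine transporter gene, and Rbm5 had the longest, 75.4 and 91.0 kb. Nup85-Gga3 (37.1 and 39.6 kb), Crcp-Tpst1 (29.4 and 35.8 kb), Opa3-Vasp (42.4 and 29.9 kb) and Tnfaip8l1-Dpp9 (42.5 and 19.1 kb) each had 1 PET in experiment 1 and 1 in experiment 3. Fance was joined to Tead3 and, by the same PETs, to Tulp1, at 21.6 and 36.8 kb, with both ends within 345 bp of a Tead3 start. Dcaf11 was joined to Emc9 and Psme2 at 25.6 and 17.8 kb. Uqcrq, a subunit of respiratory complex III, overlaps Gdf9, and both were joined to Shroom1 at 26.4 and 31.4 kb.

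Among pairs joined by 2 PETs within 1 experiment, the following 5 loci had both PETs start to start, besides Ndufc2-Thrsp. Ptms and Mlf2, divergent genes on chr6, were joined at 12.8 and 13.6 kb in experiment 3, with ends 180 and 816 bp from the Ptms start and 456 and 615 bp from that of Mlf2. Zyx, a focal adhesion gene, and Epha1, an ephrin receptor gene, were joined at 21.7 and 23.2 kb in experiment 3. The start region of Jmjd6 and Mettl23 was joined to that of the splicing factor gene Srsf2 and Mfsd11 at 12.1 and 9.88 kb, which makes 4 pairs from 2 PETs. Ufsp1-Trip6 was seen at 21.9 and 19.5 kb in experiment 3, and Amigo3-Apeh at 43.0 and 40.6 kb in experiment 1. The same PETs also counted for pairs with Ache, Srrt and Slc12a9 at the Ufsp1 locus. At the Amigo3 locus they also counted for pairs with Gmppb, Rnf123 and Bsn. Sec24a and Sar1b, which both serve the COPII coat of secretory vesicles, were joined at 10.5 and 10.9 kb in experiment 3, from the Sec24a start into the Sar1b body.

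Some genes reached several partners, and where genes overlap or lie close a single PET can give more than 1. Of 19639 genes in reach, 1527 (7.78%) were joined to at least 1 other. Rhbdl1, Apoa2, Catsperg1 and Psmd8 had 5 partners each, the most of any gene, on 2, 4, 2 and 2 PETs. Apoa2 (chr1:171221564-171226379), an apolipoprotein of high-density lipoprotein, had Cfap126, Fcer1g and Sdhc among its partners, against 0.698 PETs given by chance, and its density of local ends was 114, 34.02 and 33.6 in experiments 1, 2 and 3. Kyat1 had 4 partners (Endog, Lrrc8a, Spout1 and Zer1) on 4 PETs and was joined in all 3 experiments, with 0.214 PETs by chance. Zfp628, Mnt, Coro1b, Sema6b and Tomm40l also had 4 partners each on 2 or 3 PETs, as did Dcaf11, Slc12a9, Surf6, Cnot3, Stip1, Gls2 and Stub1.

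The joined genes were counted over 12 lists, beside the 1527 (7.78%) of all genes in reach, where chance PETs give 1048 (5.34%). This general excess raises the counts of the lists too, and whether a list exceeds it was not tested. Plasma protein genes were joined in 23 of 107 cases (21.5%, 14.1 to 30.5), where chance gave 17.7 genes. They include Apoa1, Apoa2, Apoc1, Apoc2, Apoc3, Apoc4, Apoe, Ttr, Trf, Serpinc1 (antithrombin), F10 and Vtn. Enzymes of intermediary metabolism stood at 21 of 102 (20.6%, 13.2 to 29.7) against 13.6, with Acadm, Ass1, Pck1, Pcx, Fasn, Mat1a and Gls2 among them. Xenobiotic enzymes stood at 14 of 165 (8.48%, 4.72 to 13.8) against 12.8. The highest share was that of hepatocyte transcription factors, 16 of 61 (26.2%, 15.8 to 39.1) against 6.70, with Cebpa, Nr0b2, Nr1h4, Nr3c1, Rara, Srebf1, Thra, Creb3l3 and Esrra among them. None of their pairs had more than 1 PET. Examples of low chance were Rarg-Aaas at 94404 bp, Esrra-Rps6ka4 at 69086 bp and Klf2-Ap1m1 at 76925 bp in experiment 3. The interval of the share lies above the 10.99% given by chance. The intervals of all lists treat each gene as separate, although 1 PET can join several genes of a list. They may thus be too narrow.

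Clock genes were joined in 5 of 27 cases (18.5%, 6.30 to 38.1) against 2.55, with Per1, Tef, Timeless and Usp2 among them. Tef, a clock-controlled bZIP factor, was joined to Rangap1 start to start at 81822 bp, and Usp2 to Mfrp and C1qtnf5, which share one span in the annotation, at 29069 bp. Stress genes stood at 20 of 136 (14.7%, 9.22 to 21.8) against 10.0, and genes of oxidative phosphorylation at 13 of 91 (14.3%, 7.83 to 23.2) against 5.94. Ribosomal protein genes (8 of 83, chance 5.88) and histone genes (6 of 64, chance 4.94) lay nearer to chance. The 45 markers of other liver cells in reach gave 5 joined genes, Cd68, Csf1r, Stab1, Stab2 and Tie1, against 1.81. Their share was 11.1% (3.71 to 24.1), and the interval includes the 4.01% given by chance. Families silent in liver (olfactory receptors, Hox and others) gave 3 of 1568 (0.191%, 0.0395 to 0.558) against 8.14. No major urinary protein gene was joined, 0 of 12, where chance gave 0.0443 genes; a count of 0 allows a share of up to 25% (3 of 12), and the upper Clopper-Pearson bound is 26.5%; these are near-identical copies, with a median local density of 0.

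**Figure D5:**
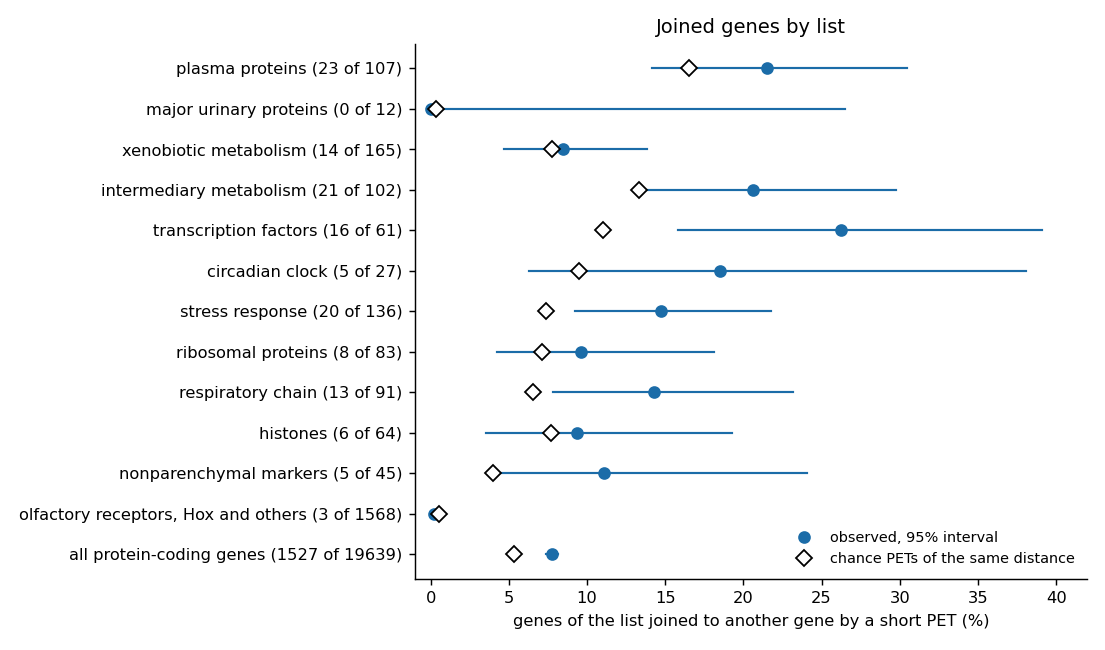
Share of genes in reach that a short PET joins to another gene (%), for 12 gene lists and for all protein-coding genes, with 95% Clopper-Pearson intervals and the share that chance PETs of the same distance give (diamonds). Transcription factor, stress and respiratory chain genes have intervals above their diamonds, and so do all protein-coding genes. Whether a list exceeds that general excess was not tested.

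Contacts inside a function were few. The plasma protein list held 7 joined pairs on 6 PETs, which makes 8 pairings of a PET and a pair, where chance gave 5.34. These were Ahsg-Fetub, Itih4-Itih1 at 57.5 kb and Itih4-Itih3 at 26.1 kb among the inter-alpha-trypsin inhibitor chains, and 4 pairs of the apolipoprotein cluster on chr7. In that cluster a PET of experiment 1 joined the start of Apoe, 15 bp away, to Apoc2 and Apoc4 at 20.6 kb, and a PET of experiment 3 joined Apoc1 to the same 2 genes at 15.4 kb. Xenobiotic genes held 4 pairs on 5 PETs, which makes 5 pairings against 2.15: Cyp4f14-Cyp4f13 at 9.45 and 11.3 kb in experiment 1, Gstt3-Gstt2 at 63.4 kb, Gstt1-Gstt2 at 36.9 kb and Ces1f-Ces1g at 46.2 kb. Histone genes held 2 pairs on 1 PET of 41.5 kb, H4c3-H1f2 and H1f6-H1f2, against 2.15. The silent families held 1 pair, against 2.38. The other 8 lists held 0 pairs each, where chance gave 0.643 pairings for metabolism, 0.165 for transcription factors and less for the rest.

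Genes of one family, taken as symbols that share their first letters, did not dominate. They made 33 of the 1035 joined pairs, from 7301 family pairs in reach (0.452%), and other genes 1002 from 47544 (2.11%). In pairings of a PET and a pair, family genes gave 34 against 18.9 by chance and other genes 1063 against 548. The stems are crude, and include broad names such as Slc and Zfp. The list of families silent in liver holds 4726 pairs in reach by itself, with a median local density of 0. Among the 33 pairs were Zfp939-Zfp619 at 68.3 kb, with ends 116 and 73 bp from the starts of these zinc finger genes, and Acsm5-Acsm1, medium-chain acyl-CoA synthetases, at 94.1 kb. Ago3-Ago1, genes of Argonaute proteins, was joined start to start at 38.8 kb, and Fads3-Fads2, fatty acid desaturase genes, at 9.86 kb away from the starts; all 4 PETs came from experiment 3.

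Joined genes carried more Pol II signal than genes at large, and so did the genes that chance PETs join. The median density of local ends over joined genes was 5.52 in experiment 1 (473 genes), 2.34 in experiment 2 (142 genes) and 3.03 in experiment 3 (1038 genes). Over all 21883 genes it was 1.21, 1.14 and 1.38, and over genes weighted by chance 5.31, 1.61 and 2.35. Both genes of a pairing lay above the nuclear mean in 83.1%, 50.6% and 78.7% of pairings, against 74.6%, 48.4% and 68.2% by chance. Local density thus moved with being joined in each experiment, and its part in the excess over chance was not tested.

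The promoters of joined genes were richer in G and C than those of all genes, and those of genes weighted by chance were nearly as rich. Over the 250 bases before the outermost start, the median GC content was 60% for 1241 joined genes with a sequence, 55.2% for all 17491 and 59.2% for genes weighted by chance. GGGCGG on either strand was present in 59.5% of joined genes, 42.7% of all and 55.9% by chance weight. TATAAA was present in 6.77% of joined genes, 12.4% of all and 7.25% by chance weight. CACGTG stood at 9.19%, 6.65% and 8.18%, and CCAAT at 38.9%, 36.5% and 36.3%. For the 353 genes with a joined end within 500 bp of that start, GGGCGG stood at 63.7%, CCAAT 42.8%, CACGTG 10.2% and TATAAA 5.38%. No chance share was computed for genes with an end that near to a start, so these values have no matched comparison. The base composition alone moves with these shares, and its part was not tested.

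Joined pairs were found on every chromosome but Y. Chromosomes 11 and 7 had the most, 78 and 73 PETs, at 1.81 (1.43 to 2.26) and 1.89 (1.48 to 2.38) times chance. Chromosome 3, with 14 PETs, was the only one of these below chance, at 0.730 (0.399 to 1.23) times, and its interval includes 1.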

How the data were processed

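The authors deposited 1 table with a row per PET, without a header; no value in it is a count or a signal. Per the submitters' processing notes Bowtie2 and mm10 were used; the sources used here do not state filters. The values used are positions, chromosomes, linkers and experiment labels. Mitochondrial PETs were left out. Gene spans and promoters were RefSeq GRCm38.p6. Chance PETs were computed without random draws (Python 3.11.15, numba 0.67.0), from all pairings of ends within an experiment and linker, in 10 distance classes of equal log width. The program was tested on simulated PETs. Shares have 95% Clopper-Pearson intervals and ratios exact Poisson intervals (scipy 1.17.1). Both cover counting error only, since no library is marked, and the ratios take the chance number as fixed. PETs carry no molecular identifier, so copies of one molecule may be counted as separate PETs. No test between groups was made. Columns for other samples numbered 0.

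Named pairs are all with PETs of at least 2 experiments, the 20 with the most PETs, the 10 genes with most partners, and for each list at most 4 leading pairs and those with both genes on it; some of these are given only by count, and some are not reported here. The members and lists were chosen with earlier results of these data known. The histone symbols, the split at 21.97 kb and the promoters shown were chosen after values were seen. Alternatives tried: the flank, distance limits, merging of near-copies, read-1 positions seen once, dense bins, chance across linkers, distance classes, overlapping genes, the boundary window and leaving out an experiment.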

Additional observations from a re-analysis of the deposited data

How the results depend on the processing

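Over 18 alternative settings and 11 values, 115 of 147 recomputed values stayed within the main value's interval (or within 1.5 times a count), 32 moved beyond it, and 0 ratios crossed 1. The ratio to chance of the same distance ranged over 1.63 to 1.94 (experiment 1), 1.78 to 1.95 (experiment 2) and 1.46 to 1.77 (experiment 3), the 1.46 with no flank. With no flank the joining share was 16.6%, neighbours 56.0%, both ends at borders 32.2%, the unweighted ratio of experiment 3 36.5, pairs with 2 PETs 16 and pairs of 2 experiments 10. A flank of 1 kb left 36 pairs with 2 PETs, and 5 kb gave 37.9% at borders. A minimum of 10 kb gave a share of 25.5%. A minimum of 20 kb gave 31.0%, neighbours 54.5%, 34 and 19 pairs, and 33.5 for experiment 3. A maximum of 50 kb gave 20.1%, neighbours 75.4%, borders 47.6%, and unweighted ratios of 54.0, 7.85 and 78.3. Genes that overlap no other gave 15.4%, neighbours 69.0%, 33 and 18 pairs. Without experiment 1 the share was 22.4% and the pairs 21 and 2; without experiment 3 the pairs were 14 and 2. A border window of 1 kb gave 21.5% and of 5 kb 58.9%. Fewer PETs, genes or bases enter under most of these; other causes were not tested. The low number of PETs limits what single pairs can show: 975 of 1035 rest on 1 PET. No paired analysis was possible because no column of the table names a library.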
